A study of Drosophila melanogaster with 9 samples.

Results

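The results concern 319 nucleotides of the Drosophila transcriptome at which both forms of Mei-P26, the full-length protein and its NHL domain alone, left a crosslink repeatedly. A position (chromosome, nucleotide and strand) was kept if it carried at least 1 cDNA in at least 2 of 3 full-length libraries and in at least 2 of 3 NHL domain libraries. Of 66540 positions crosslinked in the 6 bait libraries (68832 over all 9 libraries), 327 met this rule. Positions in mei-P26 itself (7) and in Act5C (1), the gene whose promoter drove the plasmids, were left out, which leaves 0.479% of the bait positions. The measured values used were the cDNA counts of the bait libraries. The sites were chosen by these counts, and their height above other positions is a description without a test.

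Mei-P26 is a TRIM-NHL protein best known from the fly germline, where it controls the growth and differentiation of stem cell descendants. Its NHL domain is a propeller-shaped fold that binds single-stranded, U-rich RNA. In iCLIP2, UV light joins protein to RNA, the complex is immunoprecipitated, and reverse transcription tends to stop at the joined nucleotide, so that each distinct cDNA marks 1 crosslink. Abundant small RNAs, mitochondrial rRNA and ribosomal protein mRNAs are common in such libraries whatever the bait, which makes cells without a bait the measure to set beside each site.

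Cultured S2 cells, a line of hemocyte-like character, received a plasmid (15 µg of DNA a dish, 48 h) for Mei-P26 in its full length or for its NHL domain (amino acids 908 to 1206), each with a FLAG tag. The cells were irradiated with UV light (300 mJ/cm² by the sample labels, whereas the methods give a lower dose) and lysates were treated with 10 U of RNase I. The third group, by its sample labels, was non-transfected cells immunoprecipitated with the same anti-FLAG antibody, although a treatment note common to every sample describes mutated proteins as the control. Each group had 3 replicates, and the baits came from plasmids in cells other than the germline cells in which Mei-P26 normally acts. Among hemocyte markers, 7 (such as Col4a1, vkg and SPARC) had cDNAs, Hml and NimC1 had none, and of 6 germline markers aub alone had any (2 cDNAs).

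Depth differed widely between libraries. Full-length replicates 1, 2 and 3 held 14685, 1878 and 21831 cDNAs, NHL domain replicates 4321, 7947 and 40032, and control replicates 1252, 1160 and 849. Full-length replicate 2 also stood apart along mei-P26: 15 of its 26 mei-P26 cDNAs (57.7%, exact Clopper-Pearson 95% interval 36.9% to 76.6%) lay in the stretch where 95% of such cDNAs from the NHL domain libraries were found (their central part). In full-length replicates 1 and 3 these shares were 19.0% (15.6% to 22.7%) and 20.3% (15.6% to 25.6%). In control replicates 1, 2 and 3, 3 of 3, 5 of 6 and 10 of 11 mei-P26 cDNAs lay in that stretch. The lower limits of their intervals were 29.2%, 35.9% and 58.7%. The control cells carried no plasmid by their labels, and where these few cDNAs came from was not tested. The 319 sites include 42 that need full-length replicate 2 and 277 that were found in full-length replicates 1 and 3 without it, and numbers of sites, control presence and calls are given both ways. By class, 13 of the 57 ribosomal protein mRNA sites, 11 of the 85 small RNA sites and 9 of the 80 mitochondrial sites need it. Intervals and floors cover counting error only. Where cDNAs are given as counts, they are not scaled to library totals, and a small control count can stand for a rate as high as that of a bait.

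Recurrent sites were shallow for the most part. They carried 4 to 274 cDNAs over the 6 bait libraries, with a median of 13, and 14 sites held no more than 4. They held 7248 of the 90694 bait cDNAs, and 21.5% of these lay at the 10 highest sites. With exactly 2 libraries of each bait, 170 sites lay just inside the threshold, with a median of 8 cDNAs, whereas 39 sites were crosslinked in all 6 bait libraries, with a median of 37. Just outside, 383 positions recurrent with the full-length protein were found in 1 NHL domain library (median 4 cDNAs), and 483 recurrent with the NHL domain were found in 1 full-length library (median 5 cDNAs). NHL domain replicate 3, the deepest library, covered 316 of the sites and full-length replicate 2 covered 107.

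The sites did not spread evenly over the genome. The mitochondrial genome held 80 sites (25.1%, against 4.68% of all bait positions) and arm 2R held 98 (30.7% against 20.9%), while chromosome X held 18 (5.64% against 16.3%). When sites no more than 20 nt apart on a strand were joined, 154 runs resulted, 96 of them with 1 site. The 11 runs with at least 5 sites held 114 sites.

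By annotated RNA, 85 sites lay in small nuclear, nucleolar or Cajal body RNAs or in the RNA of RNase P (called small RNAs here), 80 in mitochondrial transcripts, 15 in nuclear tRNAs and 52 in no annotated gene. The remaining 87 sites (27.3%) lay in mRNAs of 51 genes (2 non-coding genes, lncRNA:CR43604 and Uhg7, share some of these positions), namely 57 in ribosomal protein mRNAs, 6 in translation factor mRNAs and 24 in other mRNAs. The 12 of 52 unannotated sites that fall inside a gene span of RefSeq (such as bru1, lola, pum and HnRNP-K) could not be assigned to it because that table gives no strand.

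Non-transfected cells showed cDNAs at many of the same nucleotides. At least 1 control cDNA was present at 113 of 319 sites (35.4%), at 84 in 1 control library, at 23 in 2 and at 6 in all 3. Among the sites that do not need full-length replicate 2 it was present at 97 of 277 (35.0%). Per library, the sites took 6.45% ± 2.04 of the full-length cDNAs (SD, n = 3), 10.6% ± 1.30 of the NHL domain cDNAs and 5.69% ± 2.02 of the control cDNAs. The full-length range (4.83% to 8.73%, or 4.83% and 5.78% without replicate 2) overlapped the control range (4.39% to 8.01%), and the NHL domain libraries (9.26% to 11.9%) lay above both. The rule asked for cDNAs in the bait libraries and not in the control, which raises the bait shares. A higher bait share at these sites is therefore no test of the bait against the control. Positions recurrent with the full-length protein only (758) took 1.97% ± 0.541 of the control cDNAs, and those recurrent with the NHL domain only (1506) took 5.75% ± 3.00.

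**Figure D1:**
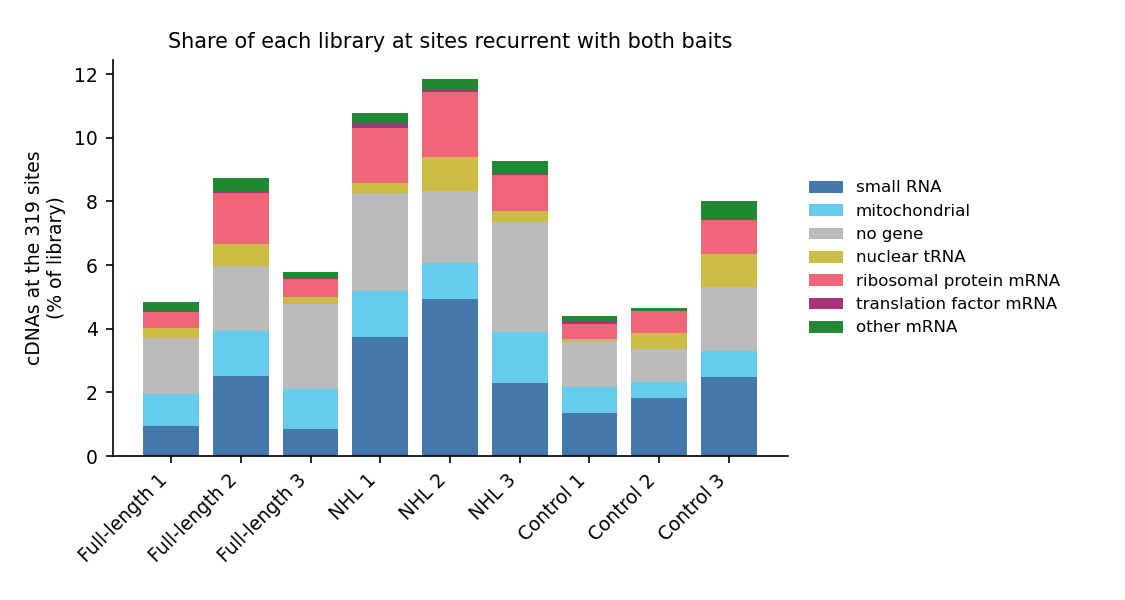
Share of the cDNAs of each library (y axis, %) that fell on the 319 sites, for 3 full-length, 3 NHL domain and 3 control libraries (x axis), stacked by the class of RNA. Bars of the full-length and control libraries overlap in height, and every class except translation factor mRNA appears in every control library.

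Control presence followed bait depth. Among sites with 4 to 9 bait cDNAs, 16.7% had a control cDNA, among those with 10 to 19 this was 35.2%, and among those with 20 or more it was 58.1%. Positions recurrent with the NHL domain only gave 9.89%, 28.9% and 59.6% in the same ranges, and those recurrent with the full-length protein only gave 9.05%, 39.0% and 33.3%, the last over 3 positions. Sites with a control cDNA had a median of 21 bait cDNAs and those without had 9.

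**Figure D2:**
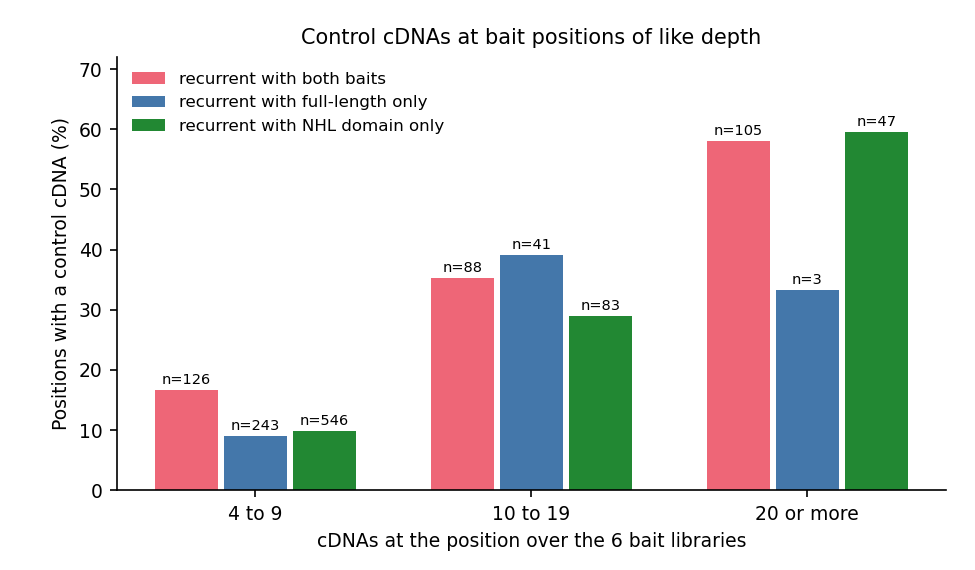
Percentage of positions with at least 1 control cDNA (y axis) by the number of cDNAs over the 6 bait libraries (x axis), for positions recurrent with both baits, with the full-length protein only and with the NHL domain only. The n above each bar is the number of positions, and the bars rise with depth in the first and the last set.

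Absence from the control says little at this depth. The 3 control libraries held 3261 cDNAs, so a count of 0 allows up to 3 cDNAs, or 9.20 per 10000. Of the 206 sites without a control cDNA, 0 had a pooled full-length rate above that limit and 2 had a pooled NHL domain rate above it. They were 2R:22197341 (minus strand) in snoRNA:Or-CD1, where the NHL domain rate was 2.35 times the limit, and 2R:19727161 (minus strand) beside snoRNA:185, where it was 1.33 times the limit. The limit holds for a single position chosen beforehand. These 2 were picked from 206 sites by bait counts and a control count of 0, so the values are no test against the control. For the other 204 sites a pooled bait rate above the control limit was not detectable. Pooled rates weight libraries by depth, and NHL domain replicate 3 held 40032 of the 52300 NHL domain cDNAs. As a mean of 3 libraries, the NHL domain rate was 9.69 at RpS20 3R:20823267, above the limit. At 2R:19727161 it was 8.07, below the limit, and the full-length mean was 9.63. What is found at single sites near the limit thus depends on the weighting.

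The run with most sites lay on the minus strand of arm 2R at snoRNA:185, a small nucleolar RNA. Within 123 nt, 30 sites in a pair of runs (2R:19727124-19727187 and 2R:19727220-19727246) held 1721 bait cDNAs. Of these sites, 8 fell in snoRNA:185 and 22 in the unannotated sequence next to it, and the latter made up 1600 of the 2570 bait cDNAs at all unannotated sites (62.3%). The highest site of all was 2R:19727172, with 12, 8 and 88 cDNAs in full-length replicates 1, 2 and 3, 11, 10 and 145 with the NHL domain, and 2, 1 and 2 in the control. Per 10000 cDNAs this came to 30.4 ± 19.2 (SD, n = 3), 24.8 ± 11.8 and 16.1 ± 7.47, and the ranges of all 3 groups overlapped. Both runs together took 1.41% ± 0.363 of the full-length, 1.58% ± 0.902 of the NHL domain and 0.992% ± 0.406 of the control cDNAs, again with overlap.

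**Figure D3:**
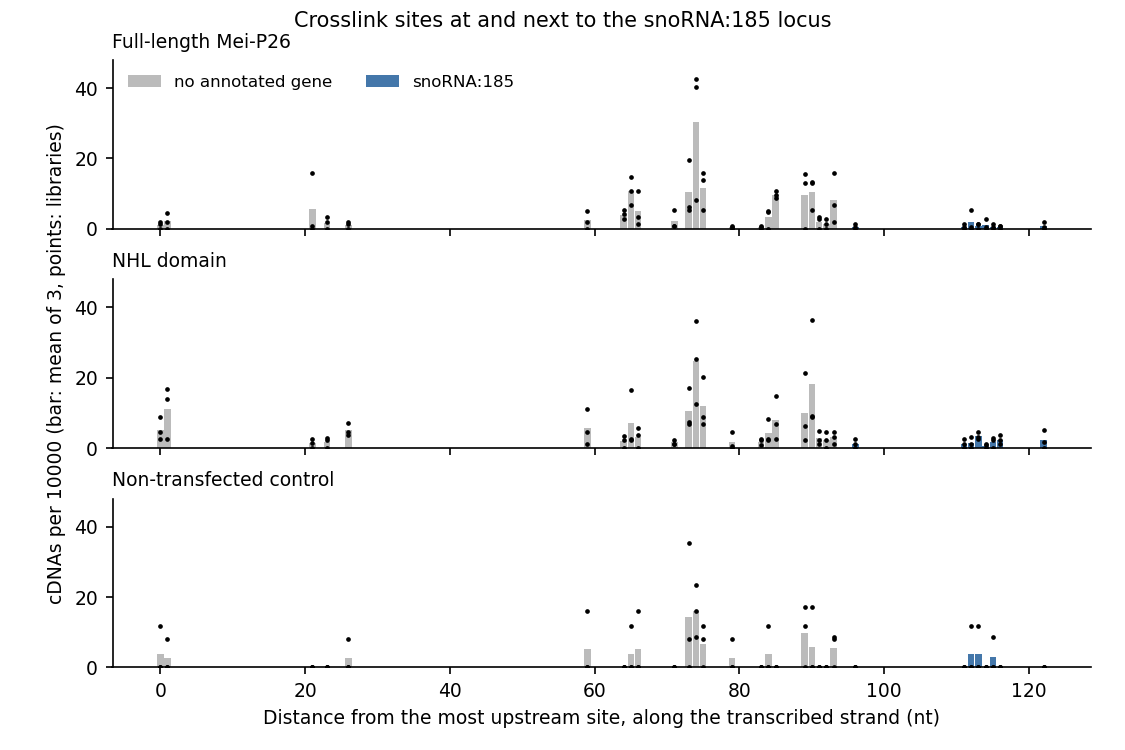
cDNAs per 10000 (y axis) at the 30 sites at and next to snoRNA:185 against distance along the transcribed strand (x axis, nt), with a panel each for full-length Mei-P26, the NHL domain and the control. Bars are means of 3 libraries, points are libraries and colour separates snoRNA:185 from unannotated sequence. The tallest bar stands at the same distance in all 3 panels.

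The run with the next largest number of sites lay in 7SK, the small nuclear RNA that holds the elongation factor P-TEFb inactive. It carried 25 sites, 23 of them in 3R:7474589-7474667 on the minus strand, and 13 had a control cDNA. Their cDNAs numbered 35, 20 and 70 in the full-length libraries, 27, 79 and 206 with the NHL domain and 9, 8 and 8 in the control. The 3 groups held 38394, 52300 and 3261 cDNAs in all. Scaled to these totals, the pooled control rate at 7SK was above that of either bait. Site 3R:7474621 had the most bait cDNAs of these (87), at 4.97 ± 0.770 per 10000 in the full-length libraries (SD, n = 3) and 12.4 ± 10.2 in those of the NHL domain, which overlapped.

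Further small RNA sites lay in RNAs annotated inside other genes, where a position counts for the small RNA and for its host. In snoRNA:Or-CD1 inside Swim, 14 sites held 66 full-length, 433 NHL domain and 9 control cDNAs. The LU snRNA inside FASN2 had 6 sites with 24, 176 and 5 cDNAs, snoRNA:Tudor-SN-a inside Tudor-SN had 2 sites with 7, 113 and 4, and U12, a component of the minor spliceosome, had 4 sites with 15, 84 and 4. At U7, which guides 3′ end processing of histone mRNAs and overlaps Eip63E, 4 sites had 8, 26 and 2. NHL domain counts exceeded full-length counts in each of these, with unequal library totals (52300 against 38394 cDNAs, and 3261 in the control). Scaled to these totals, the pooled control rate was above the full-length rate in each of them. It lay below the NHL domain rate in all but U7. These control rates rest on 9 cDNAs or fewer.

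The mitochondrial sites were mainly rRNA. The small ribosomal RNA mt:srRNA had 32 sites, more than any other gene, with 68, 15 and 132 full-length, 17, 37 and 234 NHL domain and 2, 5 and 4 control cDNAs. The large ribosomal RNA mt:lrRNA had 24 sites, with 129, 244 and 7 cDNAs in the 3 groups. Mitochondrial tRNAs contributed 12 sites, and the highest mitochondrial site was mt:tRNA:Asn-GTT, with 113 bait cDNAs. The mRNA mt:CoI, encoding a subunit of cytochrome c oxidase, had 8 sites with 23, 43 and 1. Mitochondrial RNA lies within an organelle, and no value here bears on how it met the bait. Among nuclear tRNAs, tRNA:Ser-TGA-1-1 led with 6 sites within 20 nt and 51, 116 and 7 cDNAs. Near-identical tRNA copies exist, and how reads were divided between them was not tested.

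Ribosomal protein mRNAs were the largest mRNA class. Of 87 ribosomal protein genes with cDNAs, 32 carried a recurrent site (18 of the large and 14 of the small subunit), against 1.59% of all 6780 genes with cDNAs. For 18 of the 32 genes it was 1 site. In RpS9 and RpL28 the sites lay within a snoRNA of the gene, so mRNA sites were found in 30 of these genes, and RpL23A shares its 2 sites with Uhg7. Other lists had few sites: 3 of 40 translation factor genes (eEF1alpha1 with 4 sites, eEF5 and eIF3f1), 1 of 8 chaperone genes (Hsc70-4), 2 of 13 cytoskeletal genes (Frl and alphaTub84B), and none of 14 RNA-binding or 10 extracellular matrix genes. Genes differ in length and expression, so the counts describe where recurrent sites lay and not a preference.

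For several of these mRNAs the study lists a U-rich sequence near a crosslink in the gene. The sequences below are those of at least 8 letters listed for genes with a recurrent mRNA site, printed to show the letters themselves. No value here places them next to the recurrent nucleotides. They are written 5′ to 3′ as DNA, and capitals mark a match to a motif of the NHL domain, which can be TTTTACN, or else TTTTANA, or else TTTTNCA, or a run of 7 T.
RpS20 on 3R: tTTTTACA
RpS7 on 3R: ttTTTTACA
Tctp on 3R: tTTTTACC
RpS19a on X: tTTTTAGA
CG10576 on 3L: TTTTTTTATA
RpLP1 on 2L: tttttaat
RpL6 on 3R: tttgtaaaa
RpL6 on 3R: tttctaaa
CaBP1 on 2L: tttttcta
alphaTub84B on 3R: tattttatc
Of 21 sequences listed for 17 such genes (those on arm 2R were not used), 11 held a match and 10 did not. RpS4 and RpS25 shared the match TTTTACC, and the last 5 lines show stretches without one. Matches were sought in these listed letters on the strand shown. No genome was at hand for these steps, so the distance from each letter to its site and the share of all positions near such letters were not computed.

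RpS20, which encodes a small-subunit protein, had 2 recurrent sites and no control cDNA at either. At 3R:20823267 (plus strand), full-length replicates 1, 2 and 3 gave 2, 0 and 3 cDNAs, the NHL domain 4, 9 and 34, and the control none. Per 10000 cDNAs these were 0.912 ± 0.790 (SD, n = 3) and 9.69 ± 1.47, without overlap. The neighbouring nucleotide 3R:20823268 gave 0, 1 and 2 against 0, 2 and 16 cDNAs. The study tested RpS20, RpS23 and sta further as targets, and these had 2, 7 and 1 recurrent sites. The other 12 genes that it took to binding assays or reporters (Hrb27C, Col4a1, LanA, lost, Mlc-c, eIF4A, sqd, Swip-1, bic, chic, Hsp83 and spz) had 0, although each had 30 or more crosslinked positions. The study's criterion was unlike this rule: peaks of both baits counted as equivalent when near each other, not only at the same nucleotide. LanA had 2 positions recurrent with the full-length protein and found in 1 NHL domain library, and 1 the other way round. Mlc-c and Swip-1 had 0 of either kind.

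RpS23, also of the small subunit, had 7 sites in 2R:14215387-14215428 with 11, 2 and 15 full-length, 5, 10 and 47 NHL domain and 0, 4 and 0 control cDNAs. RpL41, which encodes the shortest ribosomal protein, had 5 sites in 2R:24903443-24903476 with 8, 4 and 32, then 3, 7 and 38, and 1 cDNA in each control library. At RpL11 and RpL39 there were 4 sites each, with 17 and 9 full-length, 33 and 22 NHL domain and 0 and 1 control cDNAs.

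**Figure D4:**
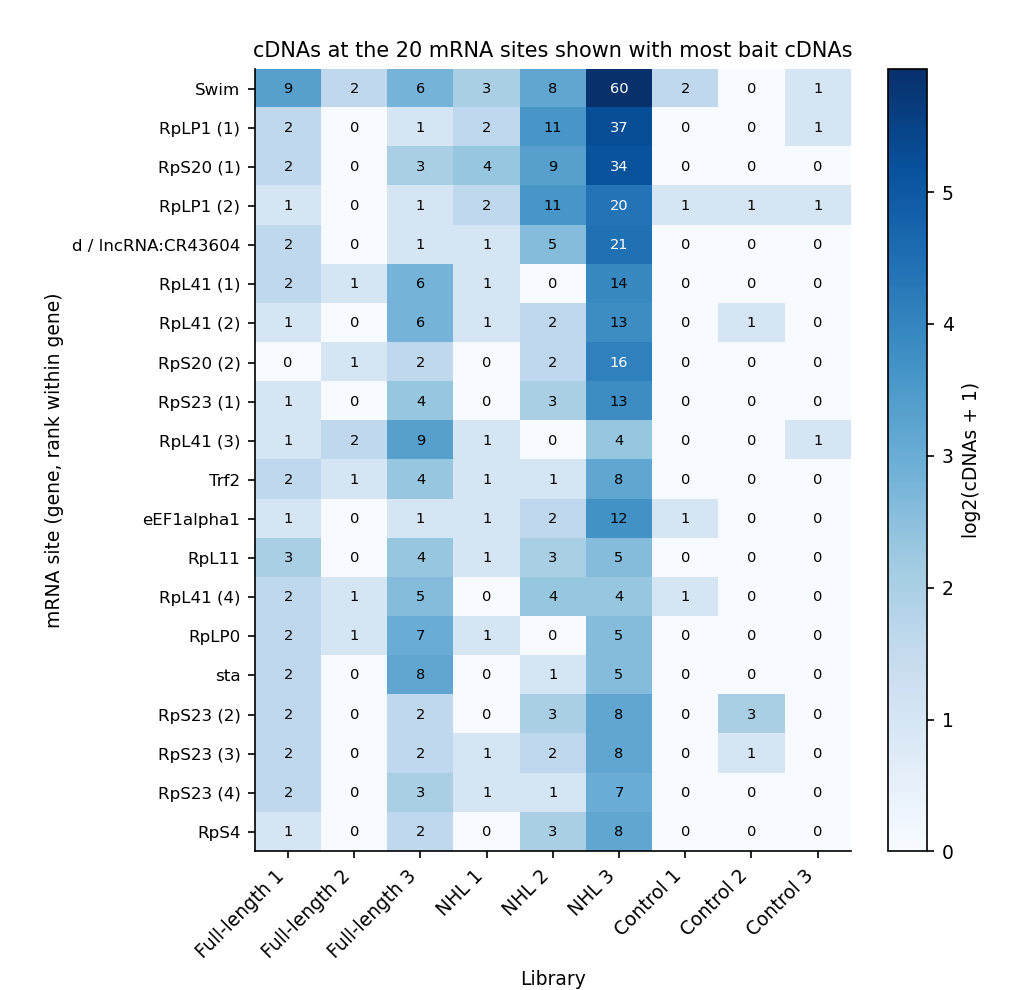
cDNAs (numbers in the cells, colour on a log2(cDNAs + 1) scale) at the 20 mRNA sites with most bait cDNAs among the genes reported (rows, named by gene and rank within the gene) in each of the 9 libraries (columns). Most cells hold fewer than 10 cDNAs, and NHL domain replicate 3, the deepest library, holds the largest number in most rows.

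Other mRNA sites were scattered over 18 genes. Pdi and CaBP1, both protein disulfide isomerases of the endoplasmic reticulum, had 3 sites and 1 site. The Swim sites outside the snoRNA gave 20 full-length, 79 NHL domain and 3 control cDNAs, Trf2, which encodes a TBP-related factor, gave 11, 15 and 0 over 2 sites, and a pair of sites shared by d and lncRNA:CR43604 gave 5, 35 and 0. Reads from overlapping genes cannot be told apart where they share a position.

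The deposited peak lists mark positions with more cDNAs than their surroundings in a gene. With both baits, 151 of the 319 sites were a peak in at least 1 library of each, 12 were with the full-length protein only, 61 with the NHL domain only and 95 in neither. The 95 include all 52 unannotated sites, for which no score was calculated. Among the 87 mRNA sites, 52 were peaks with both baits. In the control, 20 of the 319 sites were a peak.

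Differences between the baits at each site were tested with edgeR's quasi-likelihood test on all 388 positions that reached 10 cDNAs in the bait libraries together, scaled to library totals. The rule asks for presence with both baits and so favours positions without a large difference. The minimum of 10 was set on the sum over both baits, and the NHL domain libraries held more cDNAs (52300 against 38394). A position higher with the NHL domain thus reached it more easily, so the split between directions is not a property of the sites alone. Of the 193 recurrent sites tested, 20 were higher with the NHL domain (10.4%) and 0 with the full-length protein at an adjusted p below 0.05. Over all positions tested, 28.4% were higher with the NHL domain and 0.258% with the full-length protein (28.6% in either direction), and 26 of the recurrent sites had an unadjusted p below 0.05. DESeq2 also gave 0 higher with the full-length protein, as did edgeR with a minimum of 5 cDNAs and without a minimum. The median log2 difference (full-length minus NHL domain) was -0.80 for the recurrent sites and -1.38 for all positions tested. With DESeq2, which changes both the scaling and the test, these medians were 0.16 and -0.42 and 6 sites were called, and with edgeR and TMM factors they were -0.12 and -0.63 and 7 were called.

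**Figure D5:**
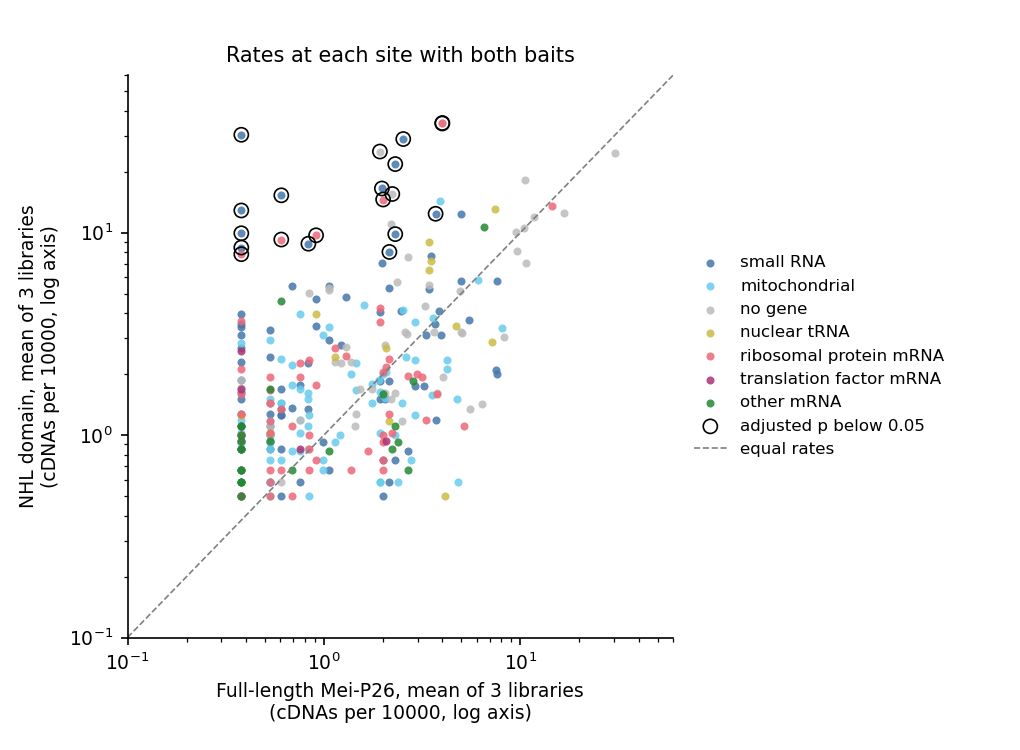
Mean cDNAs per 10000 over 3 full-length libraries (x axis, log scale) against the mean over 3 NHL domain libraries (y axis, log scale) for the 319 sites, coloured by class. Circles mark the 20 sites called by edgeR, all above the dashed line of equal rates.

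The called sites came from few RNAs. By class, 12 were in small RNAs, 5 in ribosomal protein mRNAs and 3 in no annotated gene, and 0 of the 46 mitochondrial and 9 tRNA sites tested were called. Whether the rates of both baits overlap rests on the same counts as the calls and adds nothing to them. Rates also did not overlap at sites that were not called, such as eEF1alpha1 at 2R:11895288. The largest difference was at 2R:22197341 in snoRNA:Or-CD1, with 1, 0 and 1 full-length against 10, 42 and 61 NHL domain cDNAs and none in the control (log2 difference -5.66, standard error 1.39, adjusted p = 0.00154 from edgeR). Others were position 696 (minus strand) of the unplaced scaffold 211000022279055 (log2 difference -5.13) and the LU snRNA at 2L:3046845 (-4.34) and 2L:3046847 (-4.07). The sites in RpLP1 at 2L:420659 and 2L:420660 (-3.70 and -3.46) and RpS20 at 3R:20823267 (-2.85, standard error 1.06, adjusted p = 0.0306 from edgeR) also passed, the last with no control cDNA.

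Leaving out a library removed many of these calls. Without full-length replicate 1, without full-length replicate 3 or without NHL domain replicate 1, 0 of the 20 were called (18, 13 and 27 recurrent sites then had an unadjusted p below 0.05), without NHL domain replicate 2 there were 11 calls, and without NHL domain replicate 3 there were 20. At 2R:22197341 the log2 difference was -5.95, -5.50 and -5.83 without the first 3 of these libraries in turn, against -5.66 with all 6 (adjusted p = 0.0556, 0.0883 and 0.0829 from edgeR). Without full-length replicate 2, 22 sites were called, 19 of them among the 20, although 6 of the 20 are recurrent only through that library. In simulated counts of this depth the test recovered 1 of 97 sites changed 4-fold and 80 of 97 changed 16-fold, so moderate differences were not detectable per site.

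Summed over whole genes, depth allowed a firmer comparison for the genes that carry the sites. Of 43 such genes tested (among 73 tested in all), 12 were higher with the NHL domain and 1 with the full-length protein, where 23.3% and 15.1% of all genes tested were (38.4% in either direction). Without full-length replicate 2 these were 13 and 4 genes. Most of the 12 were small RNAs or genes that host them, and cDNAs at a shared position count for both. NHL domain cDNAs over the whole gene numbered 366 for snoRNA:Tudor-SN-a and 389 for Tudor-SN, and 365 for the LU snRNA and 376 for FASN2. RpS20 was lower with the full-length protein by a log2 difference of -1.83 (standard error 0.54, adjusted p = 0.00487 from edgeR) and RpLP1 by -1.74. RpS20 took 8.85, 58.6 and 9.62 cDNAs per 10000 in the full-length libraries, 118, 107 and 92.7 with the NHL domain and 7.99, 43.1 and 94.2 in the control. For RpLP1 these rates were 11.6, 5.32 and 4.58, then 37.0, 73.0 and 40.0, and 55.9, 25.9 and 47.1 in the control. The RpLP1 control rates overlap those of the NHL domain and lie above those of the full-length protein. RpL41 was the gene higher with the full-length protein (log2 difference 1.57, standard error 0.50, adjusted p = 0.00959 from edgeR), at 14.3, 74.5 and 53.1 against 20.8, 23.9 and 29.0 per 10000, which overlap, and 15.97, 43.1 and 58.9 in the control, which overlaps the full-length libraries. With a minimum of 10 cDNAs over the 6 libraries in place of edgeR's filter its log2 difference was 0.42 (adjusted p = 0.906 from edgeR). With library totals in place of TMM the median over all genes moved from -0.14 to -1.02, 18 host genes were higher with the NHL domain and RpL41 was no longer called. Without full-length replicate 3 none of these 3 genes passed (RpS20 adjusted p = 0.148, RpLP1 0.245 and RpL41 0.196 from edgeR), and calls were also lost without full-length replicate 1 (RpS20), NHL domain replicate 1 (RpL41) or NHL domain replicate 2 (RpLP1 and RpL41). RpS23 did not pass (log2 difference 0.55, adjusted p = 0.409 from edgeR), and its rates were 33.2 ± 12.7 per 10000 (SD, n = 3) for the longer bait, 36.2 ± 9.35 for the domain and 73.9 ± 24.4 for the control.

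The make-up of the cDNAs at the sites was compared between the baits by class, where 0.1 is the smallest p of an exact permutation test over 3 against 3 libraries. Small RNAs took 21.0% ± 7.13 (SD, n = 3) of the full-length cDNAs at the sites, against 33.7% ± 8.45 of the NHL domain cDNAs and 33.6% ± 4.61 of the control cDNAs. Mitochondrial transcripts took 19.8% ± 2.94, 13.5% ± 3.87 and 13.2% ± 4.34, and ribosomal protein mRNAs 12.8% ± 4.77, 15.2% ± 2.64 and 13.0% ± 1.96. Two-sided exact permutation tests between the baits gave p = 0.2 for small RNA and for mitochondrial sites and 0.5 for ribosomal protein mRNA, and Benjamini-Hochberg adjusted values over the 7 classes were 0.467 to 1. Full-length replicate 2 lay within the NHL domain range in both of the first 2 shares, apart from the other full-length libraries. Small RNAs took 28.7% there, against 19.6% and 14.6% in full-length replicates 1 and 3 and 34.5%, 41.7% and 24.9% with the NHL domain. Mitochondrial transcripts took 16.5% there, against 20.9% and 22.05%, and 13.5%, 9.55% and 17.3%. Without replicate 2 the baits do not overlap in either share, nor in that of ribosomal protein mRNAs, while the remaining classes overlap. Exact permutation tests of 2 against 3 libraries then gave p = 0.2 for each of the classes without overlap.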

How the data were processed

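The authors removed PCR duplicates, trimmed adapters, aligned every replicate to the fly genome from Ensembl release 98 (STAR 2.7.3a is named in the submitters' processing notes) and ran iCount. Their deposited values are counts of distinct cDNAs per crosslinked nucleotide, without normalization. The deposited score tables name the gene of each position and hold the peak caller's false discovery rate, an adjusted p-value. Coordinates are counted from 1. The members and gene lists were chosen with earlier results of these data known. Named were the 20 genes with most sites, the 10 sites with most bait cDNAs, up to 5 called sites per direction, the genes of the study's assays and the fixed lists; other names (the remaining called mRNA sites, examples within a class) were chosen after their values were seen. Nuclear tRNA was added as a class after the files were seen.

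The tests per site and per gene used edgeR 4.0.16 (R 4.3.3), with Benjamini-Hochberg adjustment over all positions or genes tested. The test per gene used all 9 libraries, TMM factors and edgeR's filter on low counts. DESeq2 1.42.0, other filters and scalings, and leaving out each library were alternatives. Both tests were checked on simulated counts. Symbols came from a gene table and neighbours from RefSeq (Release 6 plus ISO1 MT), and 162 of 187 annotated nuclear sites shared a RefSeq symbol. The p-values measure the spread between these libraries. The place within a transcript was not analysed here, and 1 gene is not reported by name. Python 3.11.15 with pandas 2.3.3 and SciPy 1.17.1 was used.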

Additional observations from a re-analysis of the deposited data

How the results depend on the processing

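The number of sites follows the rule. It was 39 with all 3 libraries of each bait, 3598 with at least 1, 74 with at least 2 cDNAs per library, 2127 when a cDNA within 2 nt counted, and 83 to 277 when a library was left out. Recurrent sites called higher with the NHL domain numbered 7 with TMM on the tested positions, 6 with DESeq2, 11 with a minimum of 5 cDNAs, 6 without a minimum and 0 to 22 when a library was left out. Over all positions tested, 111 were called, and 31, 21, 43 and 18 under these settings, and 51 with the replicate block. Host genes higher with the NHL domain numbered 5 to 13 and those higher with the full-length protein 0 to 4 when a library was left out, and the latter were 0 with library totals, 3 with DESeq2 and 0 with a minimum of 10 cDNAs. The difference in class share (full-length minus NHL domain, percentage points) became -0.88 for small RNA and 0.45 for mitochondrial sites when positions were weighted equally, -22.2 for small RNA and 19.5 for unannotated sites over the sites in all libraries, and 2.85 for ribosomal protein mRNA over sites without control cDNAs. The causes were not tested.

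Same-numbered full-length and NHL domain libraries correlated at -0.22, -0.09 and 0.30 in their deviations over 73 genes. Pairs with unlike numbers were not computed, and depth differed widely, so these values do not settle whether replicate numbers pair the libraries. With the replicate block, 17 sites were higher with the NHL domain, and 10 genes were higher with it and 1 with the full-length protein. No sign changed among the 20 sites and 13 genes called, but 124 of 280 alternative values for the sites and 34 of 169 for the genes no longer passed. The share of sites near a motif and its alternatives were not run, since no genome was used. Control libraries of 849 to 1252 cDNAs limit every statement on absence. Their mei-P26 cDNAs, few in number, lay mostly in the stretch of the NHL domain libraries, and the origin of these cDNAs was not tested.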
